A study of Mus musculus with 9 samples.

Results

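The 91 genes described here encode subunits of the mitochondrial respiratory chain and ATP synthase, and they were taken from the 53342 rows of the count table by gene symbol alone. The rule took symbols of the Nduf series for complex I (37 rows), Sdha to Sdhd for complex II (4 rows), the Uqcr symbols and Cyc1 for complex III (11 rows), the Cox4 to Cox8 symbols and Cycs for complex IV with cytochrome c (19 rows) and the Atp5 symbols for complex V (20 rows). Of these rows, 6 carry pseudogene symbols and 85 do not. The assignment follows the symbols, so Ndufa4 is counted with complex I although later work places its product in complex IV.

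Respiration passes electrons from NADH at complex I and from succinate at complex II through coenzyme Q to complex III, then through cytochrome c to complex IV, where oxygen is reduced. Complexes I, III and IV pump protons across the inner mitochondrial membrane, and complex V, the ATP synthase, lets them flow back to make ATP. Most subunits are encoded in the nucleus and a few catalytic ones in mitochondrial DNA, so each complex except II is built from products of both genomes. In macrophages the balance of respiration and glycolysis is known to shift with activation and with lipid uptake, and the mTOR kinase is known to control the transcription and translation of nuclear genes for mitochondrial proteins.

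RNA was sequenced from bone-marrow-derived macrophages, which are grown from marrow cells in culture, of wild-type male and female C57BL/6J mice aged 8 to 12 weeks. The 3 groups received Torin-2 (which competes with ATP at the mTOR kinase and so blocks both mTOR complexes), rapamycin (an inhibitor chiefly of mTOR complex 1) or vehicle for 2 h, and every group, vehicle included, then received spinal cord homogenate at 1% weight per volume (10 mg/mL) for 24 h. The homogenate came from pooled cords of C57BL/6 mice aged 8 to 20 weeks, freed of meninges, so all 9 libraries come from cells loaded with cord material and none from unloaded cells. Each group held 3 biological replicates from separate animals, and the dose of either compound was not given in the sources used here.

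Total counts per library ran from 16116666 to 24044329, and the members held 0.642% to 0.662% of the counts with Torin-2, 0.723% to 0.75% with rapamycin and 0.909% to 0.955% with vehicle. The macrophage markers summed to 15046.5 to 16959.4 CPM (counts scaled to library size, as described with the processing) with Torin-2, 19780 to 21654.5 CPM with rapamycin and 13244 to 17774.9 CPM with vehicle. Single markers differed: of 10 tested, 5 were lower and 2 higher with Torin-2 against vehicle. Over all genes tested, 32.9% were lower and 32.5% higher there. With rapamycin against vehicle 5 macrophage markers were lower and 4 higher, and with Torin-2 against rapamycin 7 were lower and 2 higher. The shares of all genes tested, for these markers and those that follow, were 26.2% lower and 24.6% higher with rapamycin against vehicle. For Torin-2 against rapamycin they were 24.1% lower and 24.2% higher. Oligodendrocyte markers, which the cord homogenate can carry, summed to 367.4 to 424.7 CPM with Torin-2, 694 to 849.3 CPM with rapamycin and 482 to 616 CPM with vehicle. With Torin-2 against vehicle 4 of 7 tested oligodendrocyte markers, 3 of 6 astrocyte markers, 1 of 6 neuron markers and 3 of 3 fibroblast markers were lower and 0 were higher. With rapamycin against vehicle 3 oligodendrocyte markers were higher and 1 lower, 2 astrocyte markers and 1 neuron marker were higher and 0 lower, and 0 fibroblast markers passed. With Torin-2 against rapamycin 6 of 7, 5 of 6, 4 of 6 and 3 of 3 were lower and 0 higher, with median log2 fold changes of -1.05 for oligodendrocyte, -1.17 for astrocyte, -0.85 for neuron and -3.67 for fibroblast markers. The medians of these 4 lists and of the members were below 0 in both comparisons of Torin-2. Summed fibroblast markers were 7.17, 6.75 and 2.38 CPM with Torin-2, 78.2, 53.9 and 12.3 CPM with rapamycin and 37.8, 27.6 and 8.95 CPM with vehicle. They were thus lowest in replicate 3 of each group. Summed lymphocyte markers were at most 0.16 CPM and summed muscle markers at most 0.243 CPM in any library, and Cd3e, Cd3d, Nkg7, Myl1, Mb and Actc1 were at 0 in all 9 libraries. The part that RNA of other cells has in the results below was not tested. The mitochondrially encoded subunits were not analysed here.

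All 78 members that passed the filter on low counts are nuclear genes without a pseudogene symbol. The other 13 did not pass. They are the 6 pseudogene symbols and 7 isoforms known from other tissues: Ndufa4l2, Cox4i2, Cox6b2, Cox7a1, Cox7b2, Cox8b and Cox8c. Cox7b2, Cox8b and Cox8c had 0 counts in all 9 libraries, and none of the other 10 exceeded 18 counts in any library.

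Torin-2 against vehicle asks how the transcripts of the chain differed when both mTOR complexes were inhibited. Most subunit transcripts of every complex were lower with Torin-2. Of the 78 tested members 68 fell, 5 rose and 5 did not pass (edgeR's quasi-likelihood test, Benjamini-Hochberg adjusted p under 0.05 over 12511 genes), where 32.9% of all genes tested were lower, 32.5% higher and 65.4% either. The median log2 fold change of the tested members was -0.73, against -0.01 for all genes tested, and values ran from -3.59 (Cox6a2) to 1.60 (Cox7a2l). At least a 2-fold fall was called for 20 members, where 10.6% of all genes tested fell that far. The groups did not overlap for 74 members, 68 of them lower with Torin-2, where 70.2% of all genes did not overlap and 35.1% did so with Torin-2 lower. In these bulk samples fewer cells of a type and less RNA per cell cannot be told apart.

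Rapamycin against vehicle asks the same of a drug that acts chiefly on mTOR complex 1. Of the 78 tested members 53 fell, 4 rose and 21 did not pass, where 26.2% of all genes tested were lower, 24.6% higher and 50.8% either. The median log2 fold change of the members was -0.35, against 0.00 for all genes tested. A 2-fold fall was called for 2 members, Cox6a2 and Atp5g1, where 5.15% of all genes tested fell that far. The groups did not overlap for 60 members, 55 of them lower with rapamycin, where 57.5% of all genes did not overlap and 29.7% did so with rapamycin lower.

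Torin-2 against rapamycin sets the 2 drugs against each other directly. Of the 78 tested members 57 were lower with Torin-2, 3 were higher and 18 did not pass, where 24.1% of all genes tested were lower, 24.2% higher and 48.2% either. The median log2 fold change of the members was -0.39, against 0.00 for all genes tested. Cycs and Cox6a2 were the 2 members lower by at least 2-fold, where 4.41% of all genes tested were that much lower. The groups did not overlap for 63 members, 59 of them lower with Torin-2, where 57.2% of all genes did not overlap and 28.2% did so with Torin-2 lower. The 3 members higher with Torin-2 than with rapamycin were Sdha (0.20), Uqcrfs1 (0.19) and Atp5g2 (0.19), and only 1 member was higher without rapamycin replicate 1, without rapamycin replicate 2 or without Torin-2 replicate 2. The 3 comparisons share libraries and are not independent of one another.

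**Figure D1:**
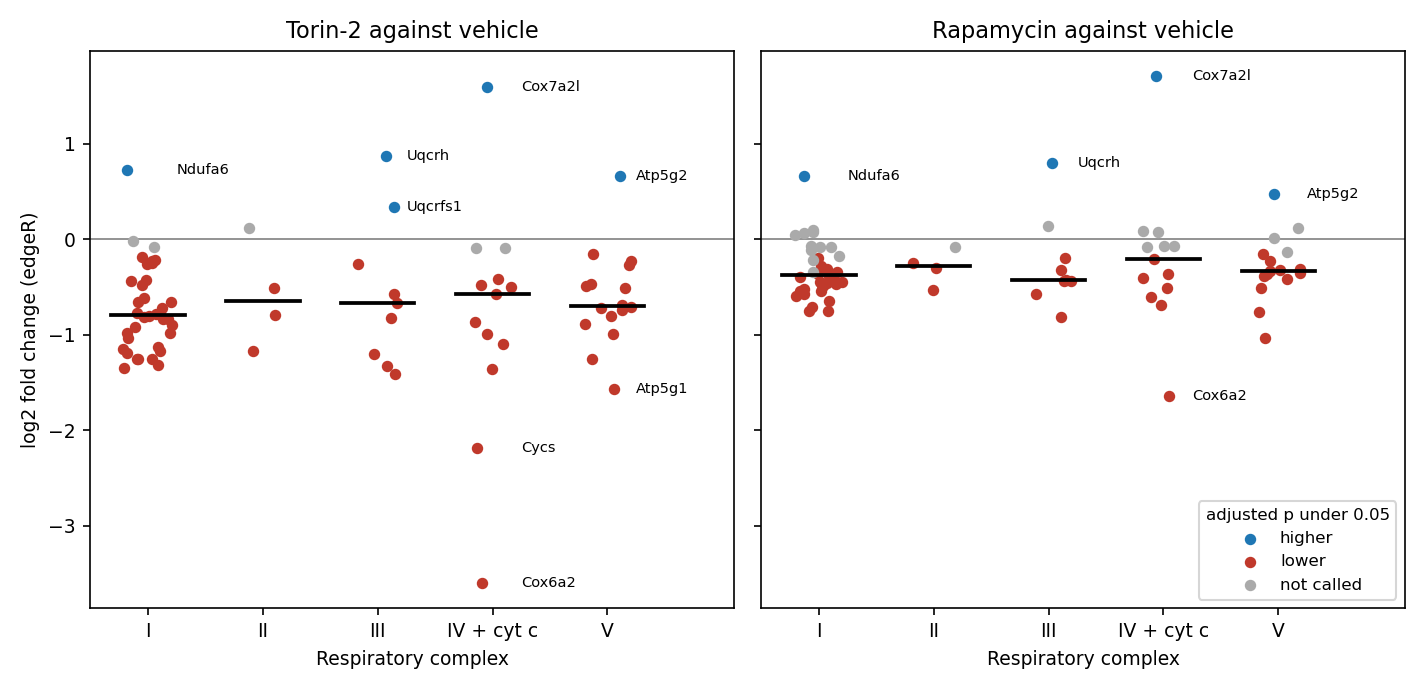
Log2 fold change (edgeR) of each tested member, by respiratory complex, for Torin-2 against vehicle (left) and rapamycin against vehicle (right). Points are genes, coloured by the call at an adjusted p under 0.05, and black bars are medians: with Torin-2 the medians lie between -0.79 (complex I) and -0.57 (complex IV with cytochrome c), with rapamycin between -0.43 (complex III) and -0.21 (complex IV with cytochrome c), and Cox7a2l stands highest in both.

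**Figure D2:**
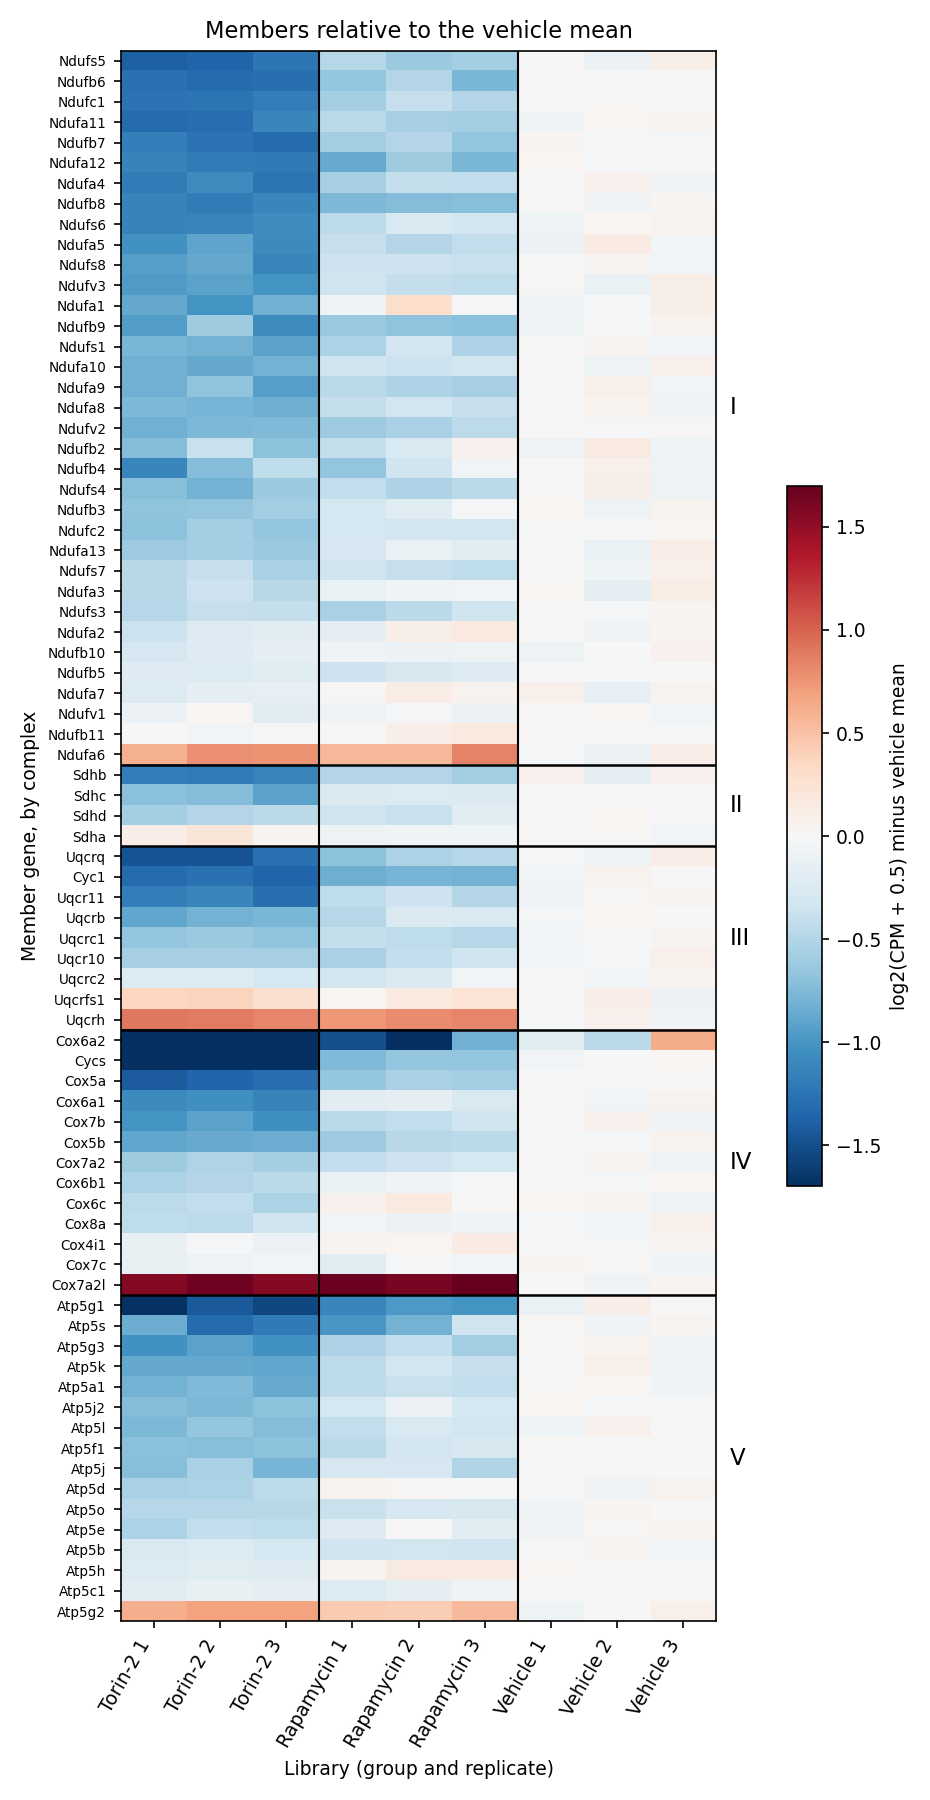
Level of the tested members reported by name (rows, grouped by complex, with Cycs under IV) in each of the 9 libraries (columns), as log2(CPM + 0.5) minus the mean of the vehicle libraries, blue for lower and red for higher. The 3 Torin-2 columns are blue for most rows and the 3 rapamycin columns paler, and the red rows in both are Ndufa6, Uqcrh, Cox7a2l and Atp5g2, with Uqcrfs1 red in the Torin-2 columns.

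Complex I takes electrons from NADH and is the largest of the complexes. Its summed transcript level was 1434.1, 1487.1 and 1444.4 CPM with Torin-2, 1761.2, 1840.4 and 1840.9 CPM with rapamycin and 2221.6, 2203 and 2246.9 CPM with vehicle. The 3 groups did not overlap, and the mean with Torin-2 was 0.654 times that with vehicle and that with rapamycin 0.816 times. Of 36 tested members 33 fell and 1 rose with Torin-2 (median log2 fold change -0.79), 24 fell and 1 rose with rapamycin (-0.37), and 26 were lower and 0 higher with Torin-2 than with rapamycin (-0.41).

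The complex has a peripheral arm, whose N module oxidises NADH and whose Q module reduces coenzyme Q, and a membrane arm that pumps protons. With Torin-2, 8 of 10 N module members, 6 of 6 Q module members and 18 of 19 membrane arm members fell, with median log2 fold changes of -0.75, -0.65 and -0.80. Ndufs5, a membrane arm subunit on the intermembrane space side, had 15.6, 16 and 17.5 CPM with Torin-2, 29.7, 26.9 and 27.9 CPM with rapamycin and 41.7, 38.9 and 45.0 CPM with vehicle. Every Torin-2 library lay below every rapamycin library, and every rapamycin library below every vehicle library. Its log2 fold change was -1.35 ± 0.08 (SE) with Torin-2 and -0.57 ± 0.08 with rapamycin (edgeR, Benjamini-Hochberg adjusted p = 4.19e-08 and 9.33e-05). Ndufb6 and Ndufc1, also of the membrane arm, followed with -1.31 and -1.26 for Torin-2 and -0.65 and -0.49 for rapamycin. With rapamycin the largest falls of the complex were those of Ndufb8, in the membrane arm, and Ndufa12, in the N module, both with a log2 fold change of -0.75.

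The 7 nuclear core subunits, which hold the flavin and the iron-sulphur clusters or line the coenzyme Q site and are conserved from bacteria, covered a wide range. With Torin-2, 6 of the 7 fell with a median log2 fold change of -0.48, and of the 29 other tested members of the complex 27 fell with a median of -0.82. Ndufs8, an iron-sulphur subunit, fell by 0.98 on the log2 scale, Ndufs1, the large iron-sulphur subunit, by 0.84 and Ndufv2, another iron-sulphur subunit, by 0.78. Ndufs7, which carries the last iron-sulphur cluster before coenzyme Q, fell by 0.48. Ndufv1, the subunit that binds NADH and flavin, had 71.6, 78.9 and 68.1 CPM with Torin-2, 73.6, 75.0 and 72.2 CPM with rapamycin and 77.6, 78.9 and 74.8 CPM with vehicle. Its groups overlapped, and its log2 fold change with Torin-2 was -0.08 ± 0.06 (edgeR, Benjamini-Hochberg adjusted p = 0.257). Without Torin-2 replicate 2 that value was -0.15 with an adjusted p of 0.0479. With rapamycin 5 of the 7 core subunits fell and 2 did not pass, with a median log2 fold change of -0.39. Among them Ndufv2, Ndufs1, Ndufs7 and Ndufs8 fell by 0.54, 0.46, 0.39 and 0.37, while Ndufv1 had a value of -0.07 that did not pass.

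Ndufb11, a small membrane arm subunit encoded on chromosome X, had 64.7, 62.4 and 63.0 CPM with Torin-2, 63.8, 69.8 and 71.9 CPM with rapamycin and 65.2, 64.2 and 63.5 CPM with vehicle. Its values overlapped between all groups, and its log2 fold change with Torin-2 was -0.02 ± 0.06 (edgeR, Benjamini-Hochberg adjusted p = 0.764). It did not pass against vehicle with either drug, and between the drugs it passed only without rapamycin replicate 1, with a log2 fold change of -0.17 for Torin-2 against rapamycin (adjusted p = 0.0361). Ndufa4, whose product is now placed in complex IV, fell by 1.17 with Torin-2 and 0.47 with rapamycin. Ndufb2 and Ndufb4, of the membrane arm, had the lowest levels of the complex's tested members, at most 2.62 and 10.6 CPM in any library.

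Ndufa6, a member of the LYR family in the peripheral arm that holds an acyl carrier protein, was the 1 member of complex I that rose. It had 88.6, 100.0 and 98.5 CPM with Torin-2, 86.0, 84.8 and 103.9 CPM with rapamycin and 57.2, 54.2 and 62.6 CPM with vehicle. Every library of either drug lay above every vehicle library, and the 2 drugs overlapped. The log2 fold change was 0.72 ± 0.09 with Torin-2 and 0.66 ± 0.09 with rapamycin (edgeR, Benjamini-Hochberg adjusted p = 1.57e-05 and 7.96e-05), and for Torin-2 against rapamycin 0.06 ± 0.09 (adjusted p = 0.574).

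**Figure D3:**
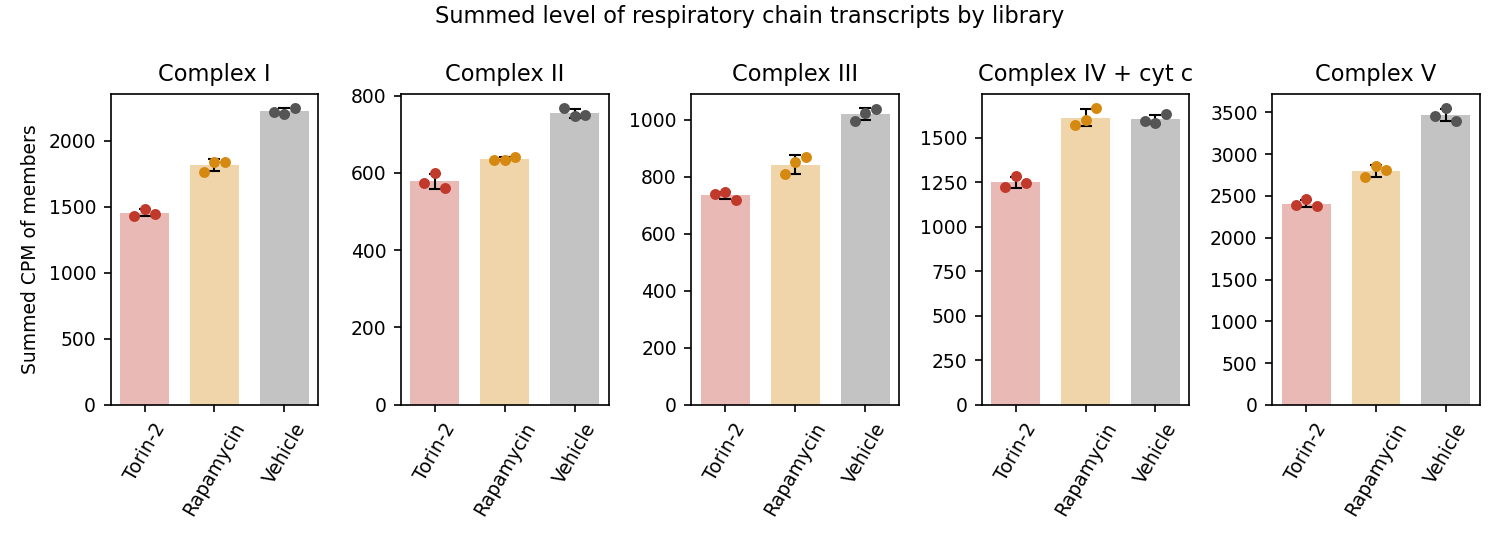
Summed CPM of the members of each complex in every library (points), with the group mean (bars, from 0) and SD (error bars, n = 3), on a separate linear axis for each complex. Complexes I, II, III and V step up from Torin-2 through rapamycin to vehicle without overlap, and for complex IV with cytochrome c the rapamycin libraries (1573.1 to 1663.9 CPM) cover the range of the vehicle libraries (1580.9 to 1629.8 CPM).

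Complex II, succinate dehydrogenase, is shared with the citric acid cycle and is encoded wholly in the nucleus. Its 4 transcripts split with Torin-2. Sdhb, the iron-sulphur subunit, had 70.9, 70.6 and 74.0 CPM with Torin-2, 113.9, 113.6 and 107.3 CPM with rapamycin and 170.2, 145.1 and 170.2 CPM with vehicle. The 3 groups stood apart, and Sdhb fell by 1.17 with Torin-2 and 0.54 with rapamycin. The membrane anchors Sdhc and Sdhd fell by 0.79 and 0.51 with Torin-2 and by 0.25 and 0.30 with rapamycin.

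Sdha, the flavoprotein that oxidises succinate and forms the catalytic head with Sdhb, had 309.1, 331.4 and 297.1 CPM with Torin-2, 270.1, 272.8 and 272.0 CPM with rapamycin and 291.7, 291.6 and 277.5 CPM with vehicle. All 3 Torin-2 libraries lay above all 6 others. The log2 fold change with Torin-2 against vehicle was 0.12 ± 0.05, which did not pass (edgeR, Benjamini-Hochberg adjusted p = 0.0584). It passed with the replicate number as a block (adjusted p = 0.0365) and without Torin-2 replicate 3 (0.16, adjusted p = 0.0315), so that 1 member of complex II is then higher where 0 were. Against rapamycin it was 0.20 ± 0.05 higher with Torin-2 (adjusted p = 0.00779).

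Complex III passes electrons from reduced coenzyme Q to cytochrome c. Its summed level was 734.2 ± 13.3 CPM with Torin-2, 842.9 ± 32.1 CPM with rapamycin and 1019.3 ± 20.6 CPM with vehicle (SD, n = 3 each). Of 9 tested members 7 fell and 2 rose with Torin-2 (median log2 fold change -0.66), and 7 fell and 1 rose with rapamycin (-0.43). Without rapamycin replicate 1 or without vehicle replicate 2, 2 members rose with rapamycin. For Torin-2 against rapamycin 5 were lower and 1 was higher, and 0 were higher without rapamycin replicate 1 or 2, Torin-2 replicate 1 or 2, or vehicle replicate 1.

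The 2 redox subunits encoded in the nucleus went opposite ways with Torin-2. Cyc1, cytochrome c1, had 52.0, 53.3 and 50.0 CPM with Torin-2, 72.9, 74.6 and 74.0 CPM with rapamycin and 125.6, 134.5 and 128.5 CPM with vehicle. The groups lay far apart for their spread, with log2 fold changes of -1.32 ± 0.05 for Torin-2 and -0.81 ± 0.05 for rapamycin (edgeR, Benjamini-Hochberg adjusted p = 1.85e-09 and 3.83e-07). Uqcrfs1, the Rieske iron-sulphur protein, had 109.0, 109.3 and 102.1 CPM with Torin-2, 85.9, 94.6 and 99.2 CPM with rapamycin and 83.8, 91.1 and 78.5 CPM with vehicle. The Torin-2 libraries lay above all others, while rapamycin and vehicle overlapped. Its log2 fold change was 0.34 ± 0.07 with Torin-2 (adjusted p = 0.00116) and 0.14 ± 0.07 with rapamycin (adjusted p = 0.113, and 0.0474 and 0.0429 without rapamycin replicate 1 and without vehicle replicate 2).

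The small subunits also divided. Uqcrq, which sits beside cytochrome b, had 34.8, 34.8 and 40.1 CPM with Torin-2, 59.5, 66.7 and 68.9 CPM with rapamycin and 94.4, 91.8 and 104.9 CPM with vehicle. Each group lay clear of the next, and the fall was 1.41 with Torin-2 and 0.58 with rapamycin. Uqcrh, the acidic hinge protein at the docking site of cytochrome c, had 113.3, 113.0 and 108.2 CPM with Torin-2, 101.5, 106.7 and 108.7 CPM with rapamycin and 60.1, 64.1 and 58.4 CPM with vehicle. Both drugs lay above vehicle in every library, with log2 fold changes of 0.87 ± 0.06 and 0.80 ± 0.06 (edgeR, Benjamini-Hochberg adjusted p = 7.13e-08 and 7.75e-07), and Torin-2 against rapamycin was 0.08 ± 0.06 (adjusted p = 0.272). Its pseudogenes Uqcrh-ps1 and Uqcrh-ps2 held at most 2 counts in any library. The core proteins Uqcrc1 and Uqcrc2, which scaffold the complex on the matrix side, fell by 0.66 and 0.26 with Torin-2.

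Cycs, cytochrome c, carries electrons from complex III to complex IV and also serves in apoptosis. It had 14, 17 and 14.7 CPM with Torin-2, 40.9, 43.8 and 43.8 CPM with rapamycin and 66.9, 69.7 and 71.0 CPM with vehicle. The 3 groups were widely separated, and the highest Torin-2 library lay well below the lowest rapamycin library. The log2 fold change was -2.19 ± 0.08 with Torin-2 and -0.69 ± 0.07 with rapamycin, and -1.49 ± 0.08 for Torin-2 against rapamycin (edgeR, Benjamini-Hochberg adjusted p = 8.3e-10, 1.38e-05 and 8.13e-08). With Torin-2 only the low-count Cox6a2 fell further among the tested members.

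Complex IV, cytochrome c oxidase, reduces oxygen. Of its 13 tested members, Cycs included, 10 fell and 1 rose with Torin-2 (median log2 fold change -0.57), 7 fell and 1 rose with rapamycin (-0.21), and 11 were lower and 0 higher with Torin-2 than with rapamycin (-0.43). Cox5a, a subunit on the matrix side, had 74.0, 77.3 and 80.8 CPM with Torin-2, 125.1, 135.5 and 131.7 CPM with rapamycin and 199.2, 196.0 and 200 CPM with vehicle. Each group stood apart from the others, and the log2 fold change was -1.36 ± 0.05 with Torin-2 and -0.60 ± 0.05 with rapamycin (edgeR, Benjamini-Hochberg adjusted p = 1.87e-09 and 3.96e-06). Cox6a1, the isoform of subunit VIa found in most tissues, had 95.6, 98.2 and 92.4 CPM with Torin-2, 178.7, 180.7 and 169.7 CPM with rapamycin and 202.1, 197.2 and 212.1 CPM with vehicle. Rapamycin lay close under vehicle and Torin-2 far under both, with log2 fold changes of -0.21 for rapamycin and -1.10 for Torin-2.

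Several other subunits of complex IV did not pass with rapamycin. Cox6b1, Cox6c and Cox8a, which are small structural subunits, fell by 0.50, 0.47 and 0.41 with Torin-2, and their values with rapamycin were -0.07, 0.09 and -0.07, none of which passed. Scaled by library totals alone, Cox6b1 and Cox8a passed with rapamycin at -0.16 each. Cox4i1, the largest of the nuclear subunits, had 312.6, 335.2 and 319.4 CPM with Torin-2, 355.0, 350.4 and 379.1 CPM with rapamycin and 340.9, 334.0 and 353.3 CPM with vehicle. Torin-2 and vehicle overlapped, and the log2 fold changes were -0.09 ± 0.05 with Torin-2 and 0.08 ± 0.05 with rapamycin (edgeR, Benjamini-Hochberg adjusted p = 0.164 and 0.251). Cox7c, a small membrane subunit, had values of -0.09 and -0.08 that did not pass either, and with rapamycin it passed when scaled by library totals alone (-0.18, adjusted p = 0.0425).

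Cox7a2l, related to the Cox7a subunits and known to join complexes III and IV into supercomplexes, showed the largest rise of any member with either drug. It had 267.5, 286.0 and 266.8 CPM with Torin-2, 287.8, 276.4 and 321.2 CPM with rapamycin and 90.9, 86.5 and 93.3 CPM with vehicle. All 6 drug-treated libraries lay far above the vehicle libraries, while the 2 drugs overlapped. The log2 fold change was 1.60 ± 0.07 with Torin-2 and 1.71 ± 0.07 with rapamycin (edgeR, Benjamini-Hochberg adjusted p = 2.36e-09 and 1.35e-08), and -0.11 ± 0.06 for Torin-2 against rapamycin (adjusted p = 0.173). The C57BL/6 strain is known to carry a shortened form of this protein, and the counts do not show which form is encoded. Its relative Cox7a2, a subunit of complex IV itself, had 49.3, 52.7 and 50.4 CPM with Torin-2, 56.0, 58.7 and 61.4 CPM with rapamycin and 75.7, 77.9 and 72.5 CPM with vehicle, and it fell by 0.57 and 0.36. The longest run that the annotated transcripts of Cox7a2 and Cox7a2l share is 11 bases, against reads of 100 bases.

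The summed level of complex IV is given with and without Cox7a2l. With Cycs and Cox7a2l included it averaged 1249.7 ± 30.9 CPM with Torin-2, 1610.9 ± 47.3 CPM with rapamycin and 1601.5 ± 25.3 CPM with vehicle (SD, n = 3 each). The log2 ratio of rapamycin to vehicle was 0.01, and -0.09 when scaled by library totals alone. Without Cox7a2l the sums were 976.2 ± 21.3, 1315.8 ± 28.9 and 1511.3 ± 22.2 CPM for Torin-2, rapamycin and vehicle, and the 3 groups no longer overlapped.

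The tissue-restricted isoforms of complex IV were close to absent, except Cox6a2, the isoform of heart and skeletal muscle. Cox6a2 had 0.749, 0.478 and 0.904 CPM with Torin-2, 2.64, 1.28 and 4.51 CPM with rapamycin and 7.28, 5.92 and 13.2 CPM with vehicle. The groups did not overlap, but vehicle replicate 3 stood well above the other vehicle libraries and the values rest on few counts, while summed muscle markers were at most 0.243 CPM in any library. The log2 fold change was -3.59 ± 0.47 with Torin-2 and -1.65 ± 0.40 with rapamycin (edgeR, Benjamini-Hochberg adjusted p = 2.8e-05 and 0.00447). Cox4i2 had at most 7 counts, Cox6b2 at most 2 and Cox7a1 at most 17 in any library, and Ndufa4l2, the relative of Ndufa4 known to be induced by low oxygen, had at most 4.

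**Figure D4:**
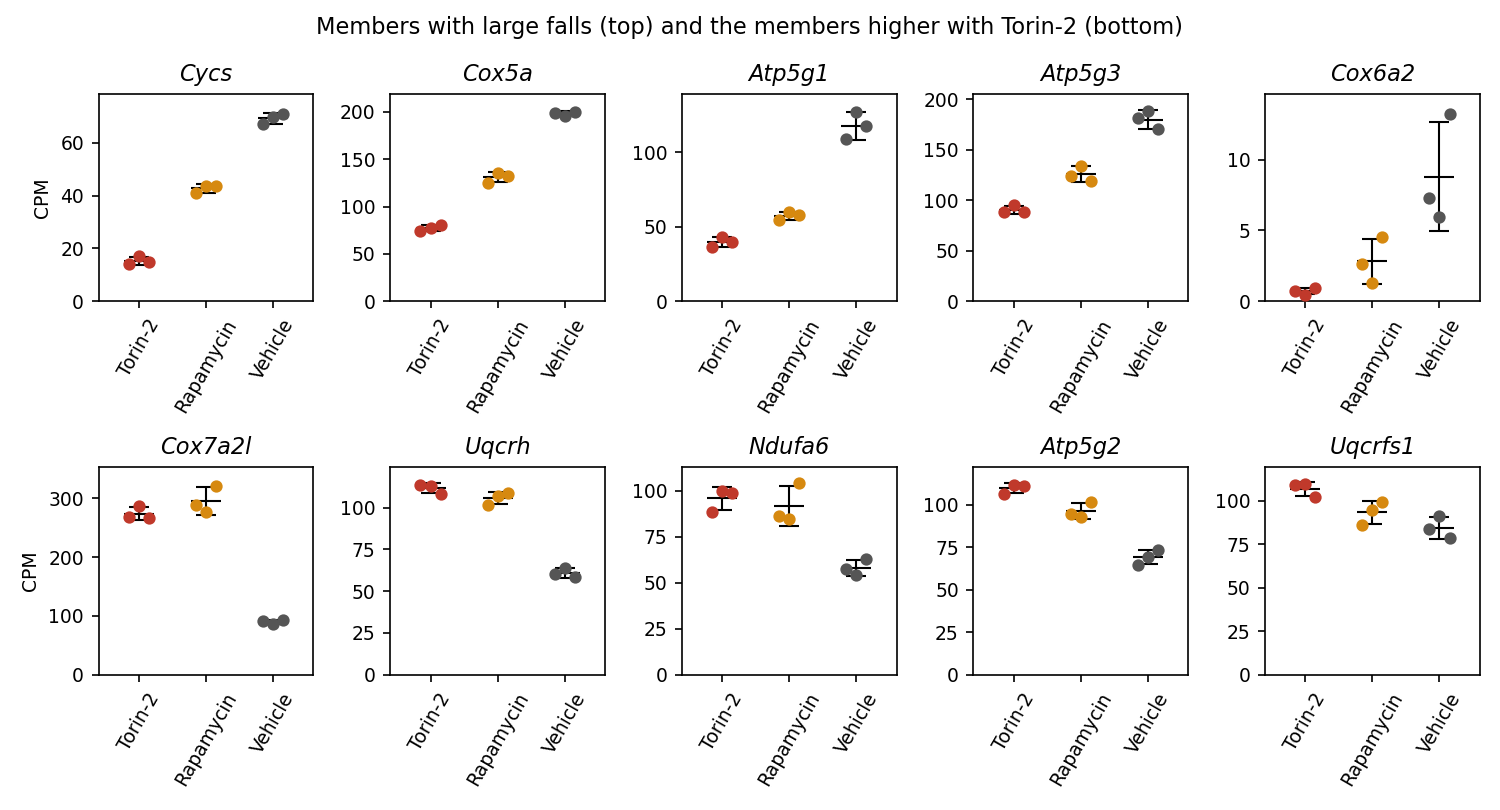
CPM of 10 members in each library (points), with the group mean and SD (bars, n = 3), for 5 members with large falls (top) and the 5 members higher with Torin-2 than with vehicle (bottom), on linear axes from 0. Cycs, Cox5a, Atp5g1 and Atp5g3 step up from Torin-2 through rapamycin to vehicle, Cox6a2 does so at a few CPM with a wide vehicle spread, and for Cox7a2l, Uqcrh, Ndufa6 and Atp5g2 both drugs lie above vehicle.

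Complex V joins a catalytic F1 head through a central and a peripheral stalk to a membrane part with a rotating ring of c subunits. Of 16 tested members 15 fell and 1 rose with Torin-2 (median log2 fold change -0.70), 12 fell and 1 rose with rapamycin (-0.33), and 12 were lower and 1 was higher with Torin-2 than with rapamycin (-0.37). Without rapamycin replicate 1, 2 members rose with rapamycin. No member was higher with Torin-2 than with rapamycin without rapamycin replicate 1 or 2 or Torin-2 replicate 2 or 3, and 2 were when scaled by library totals alone.

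In the head, Atp5a1, the alpha subunit, had 549.2, 567.3 and 530.1 CPM with Torin-2, 701.2, 734.7 and 713.2 CPM with rapamycin and 968.9, 981.8 and 922.4 CPM with vehicle. The 3 groups stood apart, and the falls were 0.80 with Torin-2 and 0.42 with rapamycin. Atp5b, the catalytic beta subunit, had 715.2, 723.1 and 691.3 CPM with Torin-2, 673.5, 685.6 and 676.0 CPM with rapamycin and 852.4, 880.0 and 825.6 CPM with vehicle. Both drugs lay below vehicle, by 0.26 and 0.33, and here the Torin-2 libraries lay above the rapamycin libraries, a difference of 0.07 ± 0.05 that did not pass (edgeR, Benjamini-Hochberg adjusted p = 0.303) and that was 0.14 with an adjusted p of 0.0498 when scaled by library totals alone. The alpha and beta subunits are known to occur in equal number in the enzyme, and per kilobase of annotated exon the levels of their transcripts were 532.6 ± 20.2 TPM for Atp5a1 and 509.7 ± 14.1 TPM for Atp5b with Torin-2, 654.1 ± 22.4 and 458.5 ± 20.5 TPM with rapamycin, and 940.8 ± 35 and 619.7 ± 19.1 TPM with vehicle (SD, n = 3). In the peripheral stalk Atp5f1 (subunit b) fell by 0.71, Atp5j (factor 6) by 0.69, Atp5o (the oligomycin sensitivity protein) by 0.49 and Atp5h (subunit d) by 0.22 with Torin-2. Of these Atp5h had 0.12 with rapamycin, which did not pass (adjusted p = 0.0703) but did without rapamycin replicate 1 (0.15, adjusted p = 0.0427).

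The c subunit of the ring is encoded by 3 genes, Atp5g1, Atp5g2 and Atp5g3, whose products differ in the targeting peptide that is cut off and are known to give the same mature protein. Atp5g1 had 36.4, 43.3 and 39.9 CPM with Torin-2, 54.3, 59.8 and 58.0 CPM with rapamycin and 108.7, 127.1 and 117.7 CPM with vehicle. Each group was clear of the next, and the log2 fold change was -1.56 ± 0.08 with Torin-2 and -1.04 ± 0.08 with rapamycin (edgeR, Benjamini-Hochberg adjusted p = 1.11e-08 and 1.22e-06). Atp5g3 had 88.0, 95.2 and 88.2 CPM with Torin-2, 124.4, 134.2 and 119.0 CPM with rapamycin and 181.5, 187.9 and 170.2 CPM with vehicle, and it fell by 0.99 and 0.52. Again the 3 groups did not overlap.

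Atp5g2 went the other way, with 106.3, 111.8 and 111.2 CPM with Torin-2, 94.6, 93.0 and 101.8 CPM with rapamycin and 64.8, 69.5 and 73.4 CPM with vehicle. All Torin-2 libraries lay above all rapamycin libraries and these above all vehicle libraries. The log2 fold change was 0.67 ± 0.06 with Torin-2 and 0.48 ± 0.06 with rapamycin (edgeR, Benjamini-Hochberg adjusted p = 1.5e-06 and 6.01e-05). Per kilobase of exon, Atp5g2 made up 56.9 ± 0.891% of the c transcripts with Torin-2, 45.4 ± 2.40% with rapamycin and 28.0 ± 1.79% with vehicle (SD, n = 3). Atp5g3 made up 36.0, 45.4 and 55.8% and Atp5g1 7.04, 9.20 and 16.2% in the same order of groups, and the order of the 3 genes thus differed between Torin-2, where Atp5g2 led in every library, and vehicle, where Atp5g3 did. The 3 genes together stood at 350.2 ± 12.3 TPM with Torin-2, 363.6 ± 14.9 TPM with rapamycin and 455.0 ± 9.41 TPM with vehicle. Torin-2 and rapamycin overlapped in this sum, and vehicle lay above both. The percentages, the ranks and the sum depend on the merged exon lengths, which are 4912 bp for Atp5g1, 1675 bp for Atp5g2 and 2181 bp for Atp5g3. In CPM, with no division by length, Atp5g2 still led with Torin-2 and Atp5g3 with vehicle. With vehicle, however, Atp5g1 (mean 117.8 CPM) then lay above Atp5g2 (69.2 CPM). The sum in CPM was 230.6, 250.3 and 239.3 with Torin-2, 273.2, 287 and 278.8 with rapamycin and 355, 384.6 and 361.3 with vehicle. In that measure the 3 groups did not overlap and Torin-2 was lowest. Annotated transcripts of Atp5g1 and Atp5g2 share at most 21 bases in a row and the other pairs 12, so no run of 100 bases is common to transcripts of any pair. Copies elsewhere in the genome, and how reads with several matches were counted, were not examined.

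Across the 78 members neither the merged length of a gene's annotated exons nor its vehicle level went closely with the log2 fold change. Spearman's rho between exon length and log2 fold change was 0.02 for Torin-2 and -0.15 for rapamycin, and between the vehicle level in TPM and log2 fold change 0.18 and 0.26, which are descriptions over genes that share the same libraries. The genes lie on 19 chromosomes. The members that rose are Cox7a2l (ENSMUSG00000024248), Uqcrh, Ndufa6, Atp5g2 and Uqcrfs1, on chromosomes 17, 4, 15, 15 and 13.

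The 5 members that rose with Torin-2 are shown first at their transcription starts, since a C at the start followed by a run of C and T marks the 5′ terminal oligopyrimidine transcripts, a class known for the control of their translation by mTOR complex 1. The 30 bases run from 10 before to 20 from the first start that RefSeq lists (GRCm38.p6, gene strand, 5′ to 3′), with capitals for a run of C and T that begins with C at the start. Atp5g2 lies at chr15:102671028-102671057 on the minus strand, Uqcrfs1 at chr13:30545297-30545326 (minus), Cox7a2l at chr17:83514314-83514343 (minus), Uqcrh at chr4:116075051-116075080 (minus) and Ndufa6 at chr15:82354272-82354301 (minus). Atp5g1 at chr11:96075612-96075641 (minus), Atp5g3 at chr2:73911307-73911336 (minus) and Cycs at chr6:50566550-50566579 (minus), which fell, are given for comparison.
Atp5g2: gcgcccccgcCCCTCTCTgtcttctctgcc
Uqcrfs1: cctcccgctcCTCTTCgggccgtcgttcga
Cox7a2l: ggggaagccgggtccttttctagggcggtc
Uqcrh: cttccggccaggtcgccggatatccgtcga
Ndufa6: tgcaggaggcacggcagcgagtcccgtggc
Atp5g1: ggctaaagctgggaggtgagtcagtcacct
Atp5g3: cggcgcggataagagccgcaccgcgcttgc
Cycs: acggcgcagcagacggcgctaccgcacgtc

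Of the 5 members that rose with Torin-2, 2 (Atp5g2 and Uqcrfs1) had a start of C and at least 4 further C or T, and 0 of the 56 lower members with a listed promoter did. Over all 65 tested members with a listed promoter the count was 3 (4.62%), Ndufb11 being the third, and the share was 2.28% of 9460 tested genes and 21% of 62 cytosolic ribosomal protein genes, the group best known for such starts. The annotated start need not be the one used in these cells, and a match is a description of the letters.

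Nuclear respiratory factor 1 is known to bind promoters of many respiratory genes at GCGCA, any base and then GCGC. In the 300 bases that RefSeq gives around each start (250 before and 50 from it), this motif, searched on both strands, stood in 16 of 65 members (24.6%), against 11.1% of all 9460 tested genes. It was in the promoters of 2 of 5 members that rose with Torin-2 and of 13 of 56 that fell (23.2%). The remaining member with the motif was Sdha, which did not pass. Matches in a member that rose (Atp5g2), in 3 that fell (Ndufs5, Ndufa11 and Sdhd) and in Sdha are shown, each in a window of 30 bases on the gene's strand (GRCm38.p6) with the match in capitals. Atp5g2 is at chr15:102671070-102671099 (minus), Ndufs5 at chr4:123718265-123718294 (minus), Ndufa11 at chr17:56717692-56717721 (plus), Sdhd at chr9:50603909-50603938 (minus) and the first of 3 matches of Sdha at chr13:74350319-74350348 (minus).
Atp5g2: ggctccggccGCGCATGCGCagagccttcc
Ndufs5: gctgcttgctGCGCAGGCGCagacccgctg
Ndufa11: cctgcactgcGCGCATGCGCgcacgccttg
Sdhd: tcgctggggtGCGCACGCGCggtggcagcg
Sdha: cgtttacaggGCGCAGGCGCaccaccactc

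The motif of YY1, AANATGGCG, was in 8 of 65 members (12.3%) and in 5.67% of all tested genes, and that of the ETS factors that include GABPA, CCGGAAG, in 15 (23.1%) and in 19.5%. The YY1 letters stood in 7 of the 56 lower members (12.5%) and in 0 of the 5 higher ones. Transcripts of these factors were measured too. Yy1 rose by 1.17 with Torin-2 and 0.55 with rapamycin, Nrf1 by 0.62 and 0.40, and Gabpa by 0.57 and 0.43. Of the partner subunits of Gabpa, Gabpb2 rose by 1.14 and 0.50 and Gabpb1 fell by 0.31 with Torin-2. Among the coactivators, Pprc1 and the receptor Esrra did not pass with either drug, Ppargc1b fell by 1.21 with Torin-2 at a mean of at most 1.02 CPM in every group (edgeR, Benjamini-Hochberg adjusted p = 0.037), and Ppargc1a was not tested at a mean of at most 0.191 CPM. The call of Ppargc1b was lost under DESeq2 (adjusted p = 0.0645) and without Torin-2 replicate 1 (0.133) or 3 (0.112) or vehicle replicate 1 (0.065) or 2 (0.134). Hif1a, which is known to shift cells to glycolysis, fell by 0.87 and 0.58. Of the 10 tested regulators 4 rose and 3 fell with Torin-2, where 32.5% of all genes tested rose and 32.9% fell.

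Genes whose products build the complexes without staying in them were described beside the subunits, with no test of the difference between the lists. The list for complex V also holds the ATP synthase inhibitor, which is counted with the assembly factors here. Of 55 tested assembly factors 33 fell, 6 rose and 16 did not pass with Torin-2 (median log2 fold change -0.45). Over all genes tested, 32.9% fell and 32.5% rose. With rapamycin 29 fell and 3 rose (-0.34), where 26.2% of all genes tested fell and 24.6% rose. For Torin-2 against rapamycin 17 were lower and 9 higher, where 24.1% of all genes tested were lower and 24.2% higher. With Torin-2 falls were called for 13 of 18 factors of complex I, among them Foxred1 (-1.26) and Ndufaf3 (-1.16), and for 12 of 22 of complex IV, among them Higd1a (-1.91), a small protein that binds complex IV. Those that rose included Surf1 (0.69), a haem-handling factor of complex IV whose level was 53.7 CPM with Torin-2, 33.7 CPM with rapamycin and 33.3 CPM with vehicle on average, the copper-related twin-CX9C protein Coa4 (1.18), and Tmem186 (0.85) and Lyrm2 (0.64), which act on complex I. Of 6 factors of complex III, Uqcc2 fell by 1.38 and Uqcc3 rose by 0.38, and the ATP synthase factors Atpaf2 and Tmem242 fell by 0.71 and 0.52.

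Subunits with symbols outside the rule fell as well. Ndufab1, the acyl carrier protein that is a part of complex I and that Ndufa6 holds, averaged 34.4 CPM with Torin-2, 39.5 CPM with rapamycin and 67.4 CPM with vehicle, and its log2 fold change was -0.97 and -0.77. Usmg5, a small membrane subunit of the ATP synthase, averaged 27.8, 39.8 and 58.2 CPM and changed by -1.06 and -0.55.

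Around the chain, 8 of 13 tested genes for coenzyme Q synthesis fell and 2 rose with Torin-2. The shares over all genes tested were 32.9% lower and 32.5% higher, for this list and for those that follow. Pdss1, which starts the side chain, fell by 2.07 and the hydroxylase Coq7 by 1.72, while the kinase-like Coq8a rose by 3.34, at 5.05 CPM with Torin-2, 1.16 CPM with rapamycin and 0.494 CPM with vehicle on average. Of 8 other genes for enzymes and carriers that pass electrons towards coenzyme Q 6 fell, some of them at few counts. The falls included Dhodh of pyrimidine synthesis (-1.59) and the glycerol phosphate dehydrogenase Gpd2 (-0.91). Sqor, the sulphide quinone oxidoreductase, rose by 0.29. Of 15 genes for transcription and replication of mitochondrial DNA 3 rose, 4 fell and 8 did not pass, with a median of 0.05. Both shares lay below those over all genes tested. The mitochondrial helicase Twnk rose by 1.30 and the polymerase subunit Polg2 by 1.36, while Slirp, which stabilises mitochondrial messages, fell by 1.24. Of 18 tested import genes 12 fell and 1 rose, with Timm23, the inner membrane channel, at -1.34 and Timm44, which anchors the import motor, at 0.29. Of 9 genes for ADP and ATP exchange and uncoupling 3 rose and 2 fell, among them the phosphate carrier Slc25a3 (0.23), Vdac2 (0.34), Slc25a5 (-0.45) and Vdac3 (-0.62).

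Annotated exons of 21 tested members overlap those of another tested gene, and the strand setting of the counting was not given in the sources used here. Among the genes named above these are Ndufs1, Ndufb2, Ndufb6, Ndufb11, Ndufa11, Cox4i1, Cox5a, Cox6c, Atp5a1, Atp5f1, Atp5j and Atp5o, whose counts are uncertain to that extent. The gene that Atp5j overlaps, by 397 bp of exon, is Gabpa, so the counts of Gabpa given above are uncertain as well. None of the 5 members that rose overlaps another tested gene. The merged exon lengths behind the TPM values include rare isoforms, so the TPM of a gene with long alternative exons is understated.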

How the data were processed

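The authors deposited whole-number counts for each gene in 9 libraries. Libraries came from the NuGEN Universal Plus mRNA-seq kit, per the labels' protocols. STAR 2.5.2a, FastQC and bcl2fastq are named, with builds mm10 and GRCm38.p6, per the submitters' processing notes. The counting tool, strand setting and annotation were not given in the sources used here.

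From the counts, R 4.3.3 with edgeR 4.0.16 (limma 3.58.1) kept 12511 genes by filterByExpr, scaled by TMM (factors 0.955 to 1.05) and fitted 1 quasi-likelihood model of 3 groups to all 9 libraries, tested 2-sided with Benjamini-Hochberg adjustment over all genes at 0.05. The common biological coefficient of variation was 9.96%. The SE is the log2 fold change divided by the square root of F. CPM are counts divided by the library total times its TMM factor, and changes are relative to the other genes. TPM are counts per kilobase of merged GENCODE M21 exon, scaled to the same sum in each library. The fit was tested on simulated data. GENCODE M21 held 53237 of the 53342 identifiers, all 91 members among them. Promoters came from RefSeq (GRCm38.p6), matched by symbol or synonym for 65 of 78 tested members.

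Deviations from group means correlated at 0.168 to 0.5 for the 9 same-numbered pairs of libraries and at -0.358 to 0.162 for 18 others, so the replicate number was also fitted as a block. Other alternatives were RLE factors, library totals, no filter, DESeq2 1.42.0, only 2 groups in the fit and leaving out libraries. Named genes are the extremes of each complex, core subunits, isoform families, members called higher, members never called and the extremes of each list. The members and lists were chosen with earlier results of these data known, so no list was tested. A few genes are counted in their lists but not reported by name here.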

Additional observations from a re-analysis of the deposited data

How the results depend on the processing

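Of 234 member comparisons, RLE factors changed 0 calls, DESeq2 2, only 2 groups in the fit 3, the replicate block 3 (all gained: Sdha, Torin-2 against vehicle; Ndufb3, rapamycin against vehicle, adjusted p = 0.0295; Ndufb4, Torin-2 against rapamycin, adjusted p = 0.0369, edgeR) and no filter 8. Library totals alone gained 9 and lost 6. Leaving out Torin-2 replicate 1 gained 1 and lost 11, and leaving out rapamycin replicate 1 gained 6 and lost 5. Any other single library left out changed fewer calls. Without replicate 3 of every group 3 were gained and 7 lost. No called member changed direction under any alternative run, and 12 uncalled values changed sign. Library totals moved the median of all genes by -0.10 for rapamycin against vehicle, and made 37.4% in place of 48.5% of the calls higher there and 59.7% in place of 50.1% for Torin-2 against rapamycin, with 61 members lower with rapamycin and 51 lower with Torin-2 than with rapamycin.

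With library totals the log2 ratio of summed CPM for rapamycin against vehicle was -0.39 (complex I), -0.34 (II), -0.37 (III), -0.088 (IV) and -0.41 (V), and for Torin-2 against rapamycin -0.24, -0.064, -0.13, -0.29 and -0.14, and complex V had 2 higher members for Torin-2 against rapamycin. Complex II had 1 higher member for Torin-2 against vehicle under DESeq2 and under the replicate block. Leaving out 1 library gave 0 to 1 higher members of complex II for Torin-2 against vehicle, 1 to 2 of complex III and 1 to 2 of complex V for rapamycin against vehicle, and for Torin-2 against rapamycin 1 to 3 in all, 0 to 1 of complex III and 0 to 1 of complex V. It gave -0.64 to -0.60 for the complex I ratio of Torin-2 to vehicle. Lower members then numbered 64 to 68 for Torin-2 against vehicle. The causes were not tested. With 3 libraries a group, members at few counts (Ndufb2, Ndufb4, Cox6a2, Atp5s) are measured least well.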
